A study of Mus musculus with 7 samples.

Results

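The genes described here are 9 genes through which monocytes are called into tissue, taken by name from a table of 56980 mouse genes and kept whatever their level: the ligands Ccl2, Ccl7, Ccl12, Ccl8, Ccl6, Ccl9 and Cx3cl1, and the receptors Ccr2 and Cx3cr1. The first 6 ligands and Ccr2 belong to the CC chemokine family, whereas Cx3cl1 and Cx3cr1 form the CX3C pair, so the set is called the monocyte chemokine and receptor genes. Total RNA came from myocardial tissue of wild-type mice, which the study describes as ischemic myocardium in the MI mice; the matching region in the sham-operated mice is not given in the sources used here. The MI mice (n = 3) were male C57BL/6J mice, a common inbred strain, obtained at an age of 8 weeks, whose left coronary artery was tied off, with tissue taken 4 days later. The sham-operated mice (n = 4) were of the same strain, sex, age and genotype and had the same operation without the tie. Each mouse gave 1 library, so the SD between mice holds animal and technical spread together.

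Chemokines are small secreted proteins that guide leukocytes by binding receptors coupled to G proteins. Ccl2, Ccl7 and Ccl12 are ligands of Ccr2, which classical monocytes carry and which draws them from bone marrow and blood into injured myocardium. Cx3cl1, or fractalkine, is made as a membrane-bound protein, often by endothelium and neurons, and can be shed, and its receptor Cx3cr1 is found on patrolling monocytes and many tissue macrophages. In bulk tissue, fewer cells of a type and less RNA per cell cannot be told apart.

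Genes were placed on GRCm38 with GENCODE M21. All 6 CC ligand genes lie on chromosome 11 in a pair of clusters. Ccl2 (ENSMUSG00000035385, plus strand, 82035571 to 82037453) is followed after 8258 bases by Ccl7 (ENSMUSG00000035373, plus strand, 82045712 to 82047525). Ccl12 (ENSMUSG00000035352, plus strand, 82101845 to 82103400) and Ccl8 (ENSMUSG00000009185, plus strand, 82115185 to 82116799) stand next to each other, 11784 bases apart. Ccl9 (ENSMUSG00000019122, minus strand, 83572919 to 83578636) and Ccl6 (ENSMUSG00000018927, minus strand, 83587882 to 83593087) form the other cluster and are 9245 bases apart. Both receptors are on chromosome 9, Ccr2 (ENSMUSG00000049103, plus strand, 124101950 to 124113557) and Cx3cr1 (ENSMUSG00000052336, minus strand, 119901616 to 120069879). Cx3cl1 (ENSMUSG00000031778, plus strand, 94772009 to 94782427) lies on chromosome 8. Of the exon bases of Cx3cr1, 78 were shared with Gm33858 on the opposite strand, and reads of the 2 genes there cannot be told apart if counting ignored strand. Stretches of 31 bases that also occur in transcripts of other genes made up 0% of Ccl2, Ccl7, Ccl8, Ccl12 and Cx3cl1, and 1.02% to 3.98% of Ccl6, Ccl9, Ccr2 and Cx3cr1, so the related ligands had no 31-base stretch in common through which reads could be misplaced.

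RefSeq promoter sequences (build GRCm38.p6) matched 7 of the 9 genes. The 250 bases before the start of Ccl8, Ccl12 and Ccl9 are shown because Ccl8 and Ccl12 are direct neighbours of which only Ccl8 was apart from sham in all MI mice, and Ccl9, from the other cluster, was apart as well. Capitals mark the letters TATAAA of a TATA box on either strand and, in Ccl9, TGANTCA of an AP-1 site.
Ccl8, chr11:82114935-82115184, plus strand: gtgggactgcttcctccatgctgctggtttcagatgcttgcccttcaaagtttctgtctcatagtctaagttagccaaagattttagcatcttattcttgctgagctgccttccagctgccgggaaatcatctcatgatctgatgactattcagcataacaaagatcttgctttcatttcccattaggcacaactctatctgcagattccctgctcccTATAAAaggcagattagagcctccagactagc
Ccl12, chr11:82101595-82101844, plus strand: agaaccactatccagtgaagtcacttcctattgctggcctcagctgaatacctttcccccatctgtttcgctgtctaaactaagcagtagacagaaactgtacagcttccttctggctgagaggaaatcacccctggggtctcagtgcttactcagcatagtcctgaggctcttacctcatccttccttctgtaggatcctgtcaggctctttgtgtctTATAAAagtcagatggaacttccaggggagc
Ccl9, chr11:83578637-83578886, minus strand: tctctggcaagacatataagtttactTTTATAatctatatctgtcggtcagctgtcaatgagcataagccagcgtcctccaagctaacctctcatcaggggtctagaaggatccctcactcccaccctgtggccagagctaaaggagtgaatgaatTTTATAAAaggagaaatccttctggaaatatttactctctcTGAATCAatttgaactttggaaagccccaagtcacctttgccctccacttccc
In Ccl8 and Ccl12 the TATAAA letters stood at almost the same place, from 32 to 27 bases before the start in Ccl8 and from 31 to 26 bases before it in Ccl12. Ccl9 held TATAAA on the strand of the gene from 92 to 87 bases before the start, overlapping a match on the opposite strand, and TGANTCA from 53 to 47 bases before it. The TATAAA letters occurred on either strand in 12.4% of 32851 promoter windows of this length, TGANTCA in 6.75%, a kappaB site, written GGGA, any 2 bases and TTCC, in 1.21% and TTCNNNGAA of a STAT site in 7.02%. Ccl6, Ccr2 and Cx3cr1 had none of these 4 in the window, and Cx3cl1 had TATAAA directly before its start. A match describes letters and not binding.

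Values are FPKM, the fragments on a gene relative to its length and to the whole library. Depths recovered from the steps of the values ran from 19977713 to 23610871 fragments. Pearson's r with single sham-operated mice, across the 11431 genes tested (genes are not independent replicates), was 0.984 to 0.987 for the library labelled MI replicate 2. It was 0.878 to 0.906 for the other 2 MI libraries. MI replicate 2 therefore lay close to the sham-operated mice, so values are given mouse by mouse and the tests with and without it. Heart tissue was checked by its markers, which were led by Actc1 among the cardiomyocyte genes, and the cardiomyocyte sum was 0.66, 0.968 and 0.692 of the sham mean in MI replicates 1, 2 and 3.

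Among the Ccr2 ligands, all 3 were high in MI replicates 1 and 3 and not in MI replicate 2. Ccl2, the main Ccr2 ligand, had an FPKM of 0.794, 0.797, 0.915 and 0.865 in sham replicates 1 to 4 and of 10.005, 0.324 and 4.08 in MI replicates 1 to 3. The groups overlapped, since MI replicate 2 was below every sham-operated mouse, with 14 fragments against 33 to 41. Ccl7, which also binds Ccr2, had 1.22, 1.27, 2.02 and 1.31 in the sham-operated mice and 20.8, 0.386 and 6.98 in the MI mice. MI replicate 2 was again lowest, with 7 fragments against 21 to 38 in the sham-operated mice. Ccl12, a mouse Ccr2 ligand, had 0.545, 0.717, 0.852 and 0.445 in the sham-operated mice and 11.2, 0.638 and 2.59 in the MI mice. These values rested on 8 to 18 fragments in a sham-operated mouse and on 220, 13 and 55 in the MI mice. For this gene MI replicate 2 lay inside the sham range.

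**Figure D1:**
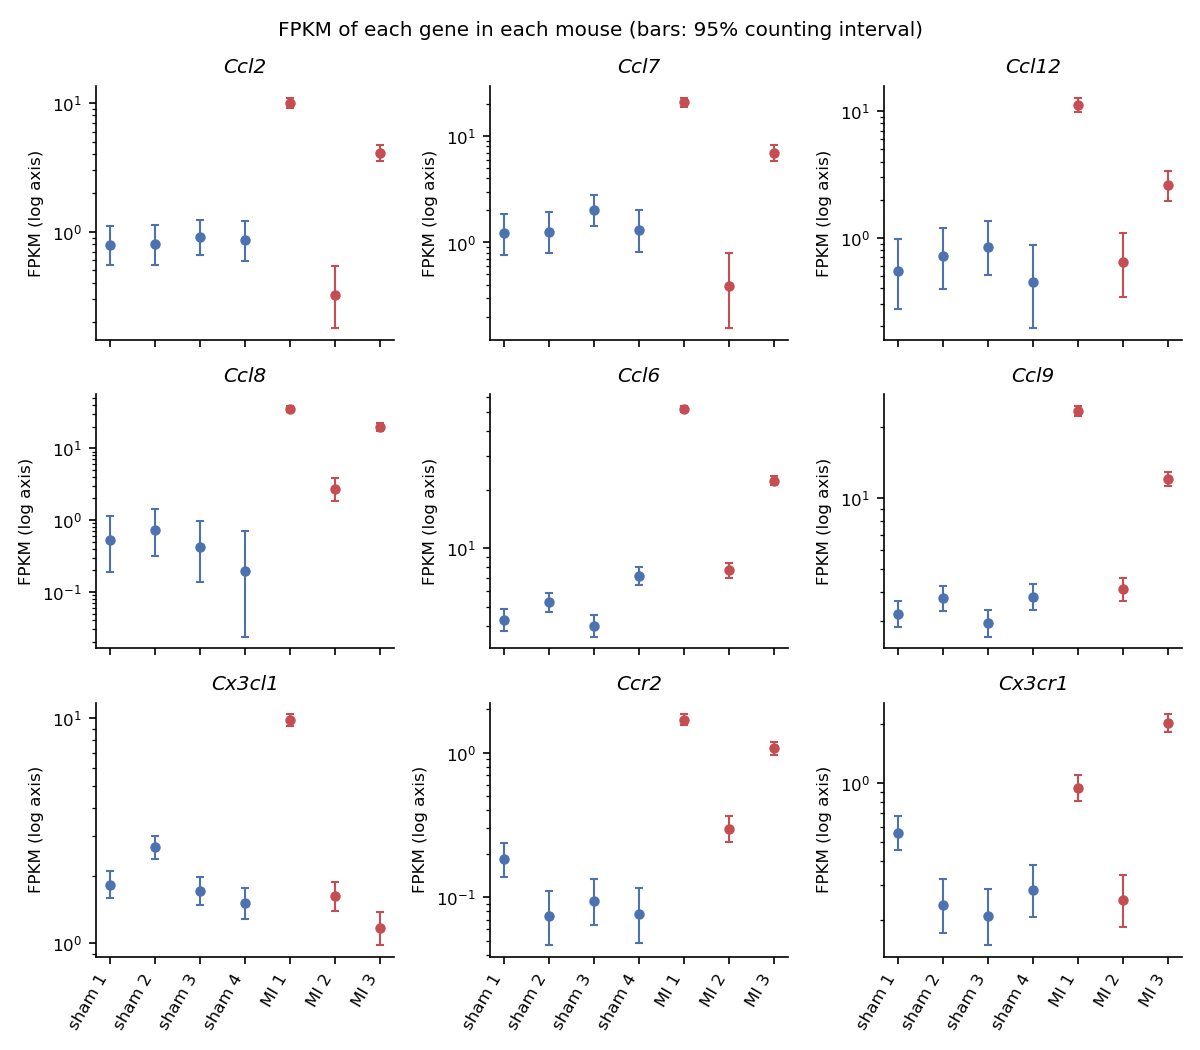
FPKM (log axis) of the 9 monocyte chemokine and receptor genes in each of 4 sham-operated (blue) and 3 MI mice (red), 1 panel a gene, with bars for the 95% Poisson interval of the fragments. MI replicate 1 was highest for all but Cx3cr1, which was highest in MI replicate 3, and MI replicate 2 lay near or below the sham-operated mice for most genes but not for Ccl8 or Ccr2.

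Ccl8, a monocyte chemoattractant, differed most. Its FPKM was 0.523, 0.722, 0.417 and 0.196 in the sham-operated mice and 35.2, 2.68 and 19.6 in the MI mice. Between 2 and 8 fragments in a sham-operated mouse stood against 392, 31 and 237 per MI mouse. The groups did not overlap, and MI replicate 2, which resembled the sham-operated mice across genes, was also above all of them for Ccl8. Ccl8 reached an FPKM of 1 only in the MI mice and entered the tested genes through them alone.

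The other cluster held the 2 of these 6 CC ligands with the highest FPKM in the sham-operated mice and in MI replicate 2, whereas Ccl8 was above Ccl9 in MI replicates 1 and 3. Ccl6, a macrophage-expressed CC chemokine, had an FPKM of 4.29, 5.27, 4.00 and 7.22 in the sham-operated mice and 52.2, 7.70 and 22.3 in the MI mice. Ccl9, a ligand of Ccr1, had 3.22, 3.76, 2.95 and 3.79 in the sham-operated mice and 23.5, 4.10 and 12.1 in the MI mice. Neither gene overlapped between groups, but MI replicate 2 was only just above the highest sham-operated mouse for both.

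Ccr2, the receptor for Ccl2, Ccl7 and Ccl12, had an FPKM of 0.183, 0.0736, 0.0946 and 0.0764 in the sham-operated mice and 1.69, 0.297 and 1.08 in the MI mice. All MI mice were above all sham-operated mice, and 97 fragments in MI replicate 2 compared with 22 to 59 in the sham-operated mice. The length behind its FPKM was 14409 bases, against 6760 exon bases in GENCODE M21, so its FPKM is low relative to genes whose lengths matched (Ccl7 at 801 and Ccl8 at 511 bases). The length also sets how much the added 1 weighs in log2(FPKM + 1): the mean FPKM of Ccr2 was 9.57 times higher in the MI mice, far more than its log2 fold change on that scale shows.

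The ligand of the CX3C pair was high in 1 MI mouse only. Cx3cl1 had an FPKM of 1.83, 2.68, 1.71 and 1.51 in the sham-operated mice and 9.83, 1.62 and 1.17 in the MI mice, so that 1 MI mouse was high, 1 was within and 1 was below the sham range. Its receptor Cx3cr1 had 0.559, 0.238, 0.209 and 0.285 in the sham-operated mice and 0.949, 0.251 and 2.04 in the MI mice. MI replicate 3 was highest for the receptor and lowest for the ligand.

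On the log2(FPKM + 1) scale, which understates changes of low genes, 5 of the 9 genes passed the filter (3 or more mice at or above an FPKM of 1), and limma's moderated test with Benjamini-Hochberg adjustment called 0 of them, in either direction, at an adjusted p under 0.05, while 0.0175% of all tested genes (2 of 11431) were called higher. At an unadjusted p under 0.05, 3 of the 5 were higher in the MI mice (Ccl6, Ccl8 and Ccl9), beside 29.5% of all tested genes (19.0% after median log-ratio and 16.7% after quantile scaling, each with 3 of the 5). Ccl8 was among the 5 only because it was high in the MI mice, so its place in this count is no support and its test is taken from the fit without a filter. Without MI replicate 3, 2 of the 5 remained, since Ccl9 lost its call (log2 fold change 1.34, unadjusted p = 0.0519 by limma), beside 8.33% of all tested genes. The log2 fold change with all mice was 1.86 for Ccl6 (SE 0.55, adjusted p = 0.108) and 1.42 for Ccl9 (SE 0.46, adjusted p = 0.108), by limma with Benjamini-Hochberg adjustment. Ccl7 had 1.35 (SE 0.81, adjusted p = 0.221 by limma) and Cx3cl1 0.44 (SE 0.52, adjusted p = 0.512 by limma). MI replicate 1 carried much of these values: without it the log2 fold change was 0.45 for Ccl7, 1.23 for Ccl6 and 0.89 for Ccl9, and that of Cx3cl1 turned to -0.28. With sample weights, under which MI replicate 3 outweighed all other mice, Cx3cl1 was at -0.45 (adjusted p = 0.0178 by limma), and it was 1 of 5 members lower at an adjusted p under 0.05, beside 20.3% of all tested genes, and 1 of 5 at an unadjusted one, beside 20.4%. Over all tested genes the median log2 fold change was 0.21. The 4 genes below the filter and Ccl8 were read from a fit of all 30504 genes above 0. There the log2 fold change was 3.27 for Ccl8 (SE 0.72, adjusted p = 0.188 by limma). In the filtered fit the value of Ccl8 was 2.59 without MI replicate 1, 4.56 at a pseudocount of 0.1 and 4.71 with voom on the recovered fragments. In the fit without a filter it was 1.19 for Ccl2 (SE 0.65, adjusted p = 0.275 by limma), 1.35 for Ccl12 (SE 0.62, adjusted p = 0.215 by limma), 0.81 for Ccr2 (SE 0.23, adjusted p = 0.188 by limma) and 0.57 for Cx3cr1 (SE 0.29, adjusted p = 0.247 by limma). In that fit 4 of the 9 genes were higher at an unadjusted p under 0.05 (Ccl6, Ccl8, Ccl9 and Ccr2), and 20.6% of all genes were. The same 4 genes had every MI mouse above every sham-operated mouse, as did 12.0% of the 30504 genes.

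Without MI replicate 2, the picture for these genes differed. Ccl6 rose by a log2 fold change of 2.53 (adjusted p = 0.000513), Ccl7 by 2.44 (adjusted p = 0.000857) and Ccl9 by 2.02 (adjusted p = 0.000251), by limma with Benjamini-Hochberg adjustment, and 4 of the 5 tested genes were called higher, Ccl8 being the fourth. Of all tested genes 57.0% were then called higher, so the share among these genes has to be read against a large background. With the 4 low genes included, a setting chosen after seeing the data, 8 of 9 passed, beside 35.8% of all genes, and 8 of 9 were higher at an unadjusted p under 0.05, beside 40.8%. Ccl8 rose by 4.24 there (adjusted p = 0.000258 by limma). Ccl2 and Ccl12 each had 2.02 (adjusted p = 0.00406 and 0.0218), Ccr2 1.10 (adjusted p = 0.00119) and Cx3cr1 0.89 (adjusted p = 0.0200), by limma. Cx3cl1 was the exception, at 0.74 (adjusted p = 0.416 by limma in this fit). The same 8 genes had both remaining MI mice above every sham-operated mouse, and 43.4% of all genes did.

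**Figure D2:**
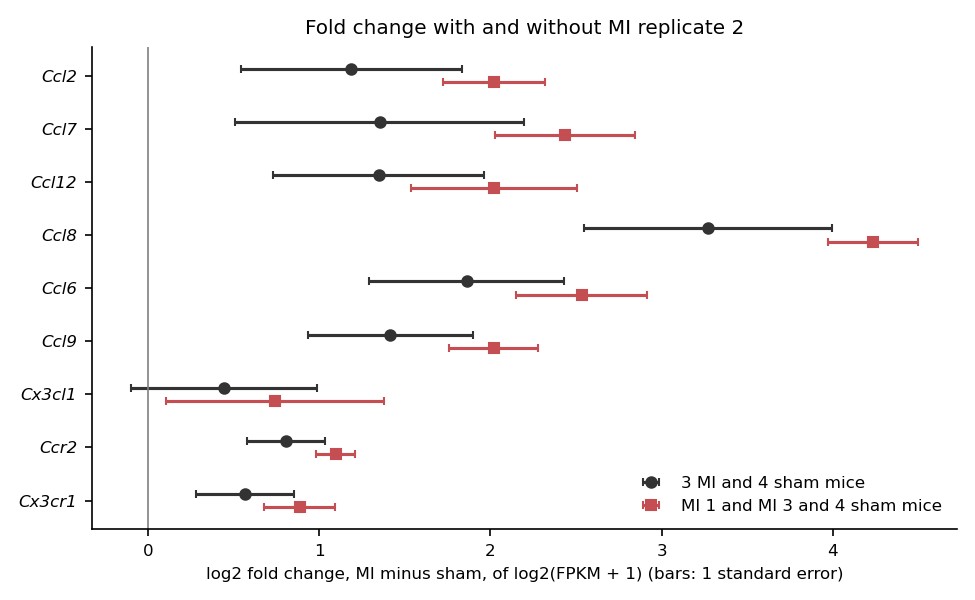
Log2 fold change (MI minus sham, of log2(FPKM + 1), limma without a filter on low values) of the 9 genes, with bars of 1 standard error, for all 7 mice (black circles) and without MI replicate 2 (red squares). The value of Ccl8 was 3.27 with all mice and 4.24 without MI replicate 2, and that of Cx3cl1 was 0.44 and 0.74.

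The 6 CC ligands together had a summed FPKM of 12.0 ± 1.45 (SD, n = 4) in the sham-operated mice and of 153, 15.8 and 67.6 in the MI mice, which were 12.7, 1.32 and 5.62 times the sham mean. Their make-up shifted towards Ccl8, which gave 1.42% to 5.76% of the sum in the sham-operated mice and 23.0%, 16.9% and 29.0% in the MI mice. The share of Ccl9 went the other way, from 26.4% to 30.4% in the sham-operated mice to 15.4%, 25.9% and 17.9% in the MI mice. In both cases no MI mouse was within the sham range. Ccl6, at 35.9% to 52.2% in the sham-operated mice, was below that range in MI replicates 1 and 3, at 34.1% and 32.9%, and within it in MI replicate 2, at 48.7%. MI replicate 2 had the lowest shares of Ccl2 and Ccl7, at 2.05% and 2.44% against 6.26% to 8.20% and 9.49% to 18.1% in the sham-operated mice, and the share of Ccl2 in MI replicate 3, 6.04%, was also just below the sham range. These shares are descriptions and sum to the whole, so a rise in one lowers the others.

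**Figure D3:**
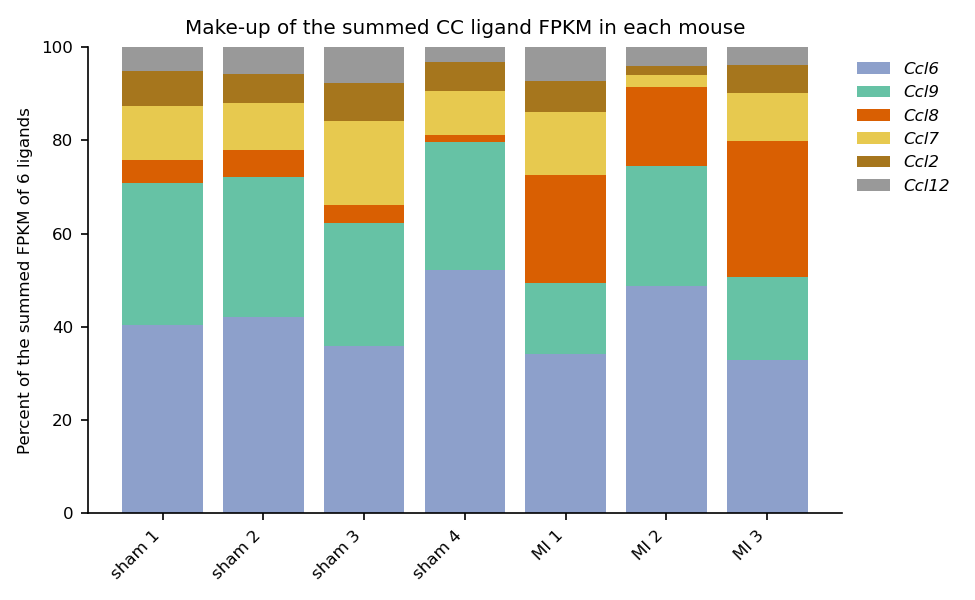
Percent of the summed FPKM of 6 CC ligands held by each ligand, 1 stacked bar for each of 4 sham-operated and 3 MI mice. Ccl8 (orange) held at most 5.76% in a sham-operated mouse and at least 16.9% in an MI mouse.

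Markers of several blood and tissue cell types were also high in MI replicates 1 and 3, while the sums for resident macrophages and endothelium stayed near the sham mean, and with all mice no marker passed an adjusted p under 0.05 in limma. The summed FPKM of 5 pan-leukocyte markers was 7.98, 1.12 and 5.12 times the sham mean in MI replicates 1, 2 and 3. That of 11 macrophage markers was 5.12, 1.05 and 4.33 times. All 11 passed the filter, and 11 of 11 were higher at an unadjusted p under 0.05 by limma, beside 29.5% of all tested genes. The fit without a filter also had 11 of 11, beside 20.6% of all genes. In both fits 0 of 11 passed an adjusted p under 0.05. The 7 classical monocyte markers gave 3.77, 1.09 and 2.26 times, the 7 neutrophil markers 22.0, 0.792 and 11.7 times with Ly6g at 0 in every mouse, and the 7 fibroblast markers 20.7, 1.803 and 15.8 times. The 4 resident cardiac macrophage markers gave 1.18, 0.989 and 1.04 times, with 0 of 4 at an unadjusted p under 0.05. The 7 T and NK cell markers gave 9.11, 2.08 and 6.53 times, the 4 B cell markers 39.4, 0.706 and 6.20 times, the 5 mast cell markers 2.30, 1.09 and 1.64 times, the 7 endothelial markers 1.15, 0.910 and 1.24 times (a sum led by Cdh5, with Vwf at 2.18, 1.18 and 2.53 times) and the 5 mesothelium markers 4.50, 3.14 and 6.68 times. The markers with the highest mean FPKM were Laptm5, C1qb, F13a1, S100a9, Col3a1, Cbr2, Cd4, Cd79a, Mcpt4, Cdh5 and Upk3b in the order of these lists. The part of these cells in the levels of the chemokine genes was not tested.

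The macrophage marker sum was 145 on average in the sham-operated mice. It rested mainly on C1qa, C1qb and C1qc, with sham means of 48.8, 46.3 and 21.1. Among the 11 markers, Fcgr1 was 11.1, 1.55 and 8.13 times the sham mean in MI replicates 1, 2 and 3, and Cd163 1.20, 1.46 and 1.16 times. Set against this sum, with the sham mean as 1, Ccl8 was still 14.7, 5.42 and 9.69 in MI replicates 1, 2 and 3. In the sham-operated mice it was 0.389 to 1.52. Ccr2 was 3.09, 2.64 and 2.33 in the MI mice and 0.665 to 1.65 in the sham-operated mice. For these 2 genes all MI mice were above all sham-operated mice on this scale too, MI replicate 2 included, as were 2.28% of all genes above 0. Ccl6 was 1.98, 1.42 and 0.998 against 0.803 to 1.303, and Ccl9 was 1.34, 1.13 and 0.814 against 0.907 to 1.08, so that both overlapped with sham. Set against the pan-leukocyte sum, a scale added after seeing the data, Ccl8 was 9.57, 5.17 and 8.32 and Ccr2 1.99, 2.49 and 1.97 in the MI mice, again above the highest sham-operated mouse at 1.504 and 1.67, as were 1.75% of all genes. Ccl9 in MI replicate 1 was then 0.859, below the lowest sham-operated mouse at 0.915, and Ccl6 in MI replicate 1 was 1.26, within the sham range, so their place in MI replicate 1 depended on the markers used. Cx3cl1 on the pan-leukocyte scale was 0.641, 0.749 and 0.119 in MI replicates 1, 2 and 3. Each value was below the lowest sham-operated mouse, at 0.789. On that scale a larger share of all genes had every MI mouse below every sham-operated mouse than above. On the macrophage scale again, Cx3cl1 in MI replicate 3 was 0.139, below the lowest sham-operated mouse at 0.724. MI replicates 1 and 2 were within the sham range there. Ccl2 in MI replicate 2 was 0.361 and Ccl7 0.246, below the lowest sham-operated mouse at 0.900 and 0.793. In MI replicate 1 the macrophage scale gave 2.30 for Ccl2, 2.73 for Ccl7 and 3.35 for Ccl12, above the highest sham-operated mouse at 1.23, 1.55 and 1.48. Ccl12 in MI replicates 2 and 3 was 0.923 and 0.913, within the sham range. Cx3cr1 was 0.581, 0.745 and 1.48 in the MI mice against 0.736 to 1.69 in the sham-operated mice.

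**Figure D4:**
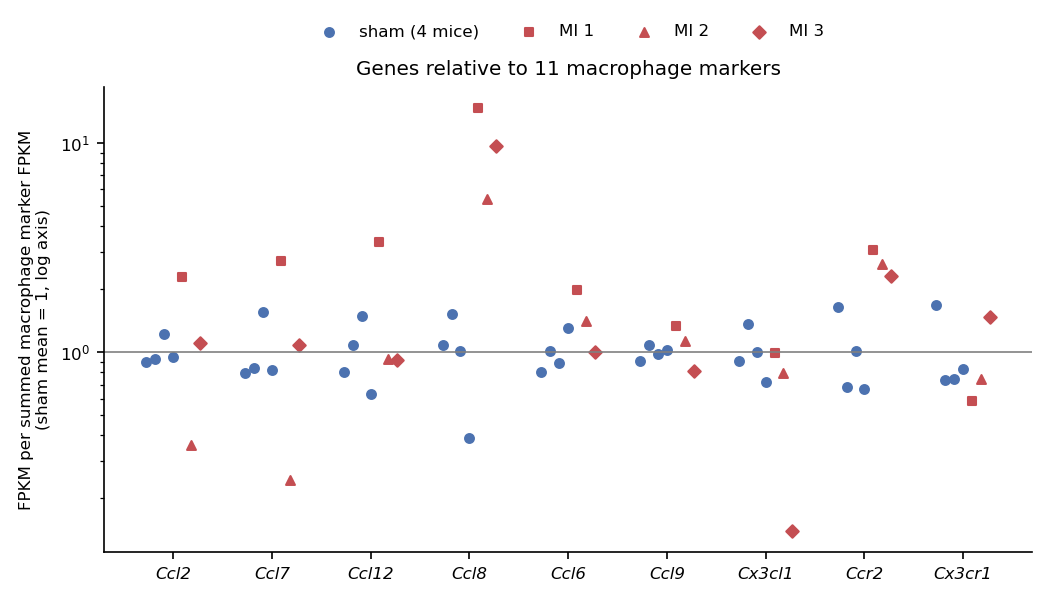
FPKM of each gene divided by the summed FPKM of 11 macrophage markers (log axis, mean of the sham-operated mice set to 1) in 4 sham-operated (blue circles) and 3 MI mice (red). All 3 MI mice lay above the sham range for Ccl8 (5.42 to 14.7) and Ccr2 (2.33 to 3.09). The marker sum rested mainly on C1qa, C1qb and C1qc.

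The 2 MI mice with high values differed from each other by gene. MI replicate 1 was above MI replicate 3 by 8.42 times for Cx3cl1 (95% counting interval 7.06 to 10.1) and by 4.34 times for Ccl12 (3.21 to 5.94). The ratio was 2.98 for Ccl7, 2.45 for Ccl2, 2.34 for Ccl6, 1.95 for Ccl9, 1.79 for Ccl8 and 1.57 for Ccr2. Cx3cr1 was the reverse, at 0.465 (0.384 to 0.561). The median log2 ratio over all tested genes was 0.058. These intervals cover counting error in 2 libraries and not the spread between mice.

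Ligand and receptor were compared within each mouse as differences of log2(FPKM + 1), by an exact two-sided permutation test over the 35 splits of the mice, where p is 2 times the smaller tail and so at least 0.0571, with adjustment over the 3 differences. Ccr2 relative to Cx3cr1 was -0.25 ± 0.11 (SD, n = 4) in the sham-operated mice and -0.011 ± 0.51 (SD, n = 3) in the MI mice, a difference of 0.24 (exact permutation p = 0.457, adjusted p = 0.857). That difference was 0.0015 without MI replicate 1 and 0.51 without MI replicate 3. Ccl2 relative to Ccr2 differed by 0.38 (exact permutation p = 0.629, adjusted p = 0.857) and Cx3cl1 relative to Cx3cr1 by -0.12 (exact permutation p = 0.857, adjusted p = 0.857). With levels this low the added 1 weighs on the result, so the plain ratios of FPKM, chosen after these values were seen, are given beside it. The ratio of Ccr2 to Cx3cr1 was 0.327, 0.309, 0.452 and 0.269 in the sham-operated mice and 1.78, 1.18 and 0.527 in the MI mice, with every MI mouse above every sham-operated mouse, a log2 difference of 1.64 (exact permutation p = 0.0571, the smallest by this definition, adjusted p = 0.171). If absolute differences are counted instead, the exact permutation p is 0.0286 (adjusted p = 0.0857). The counting interval of MI replicate 3, 0.455 to 0.611, overlapped those of single sham-operated mice, such as 0.274 to 0.744 in sham replicate 3. The ratio of Ccl2 to Ccr2 was 4.35, 10.8, 9.67 and 11.3 in the sham-operated mice and 5.91, 1.09 and 3.79 in the MI mice, so without the added 1 the difference was -1.55 and opposite in sign (exact permutation p = 0.114). The ratio of Cx3cl1 to Cx3cr1 was 3.27 to 11.2 in the sham-operated mice and 10.4, 6.44 and 0.572 in the MI mice.

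**Figure D5:**
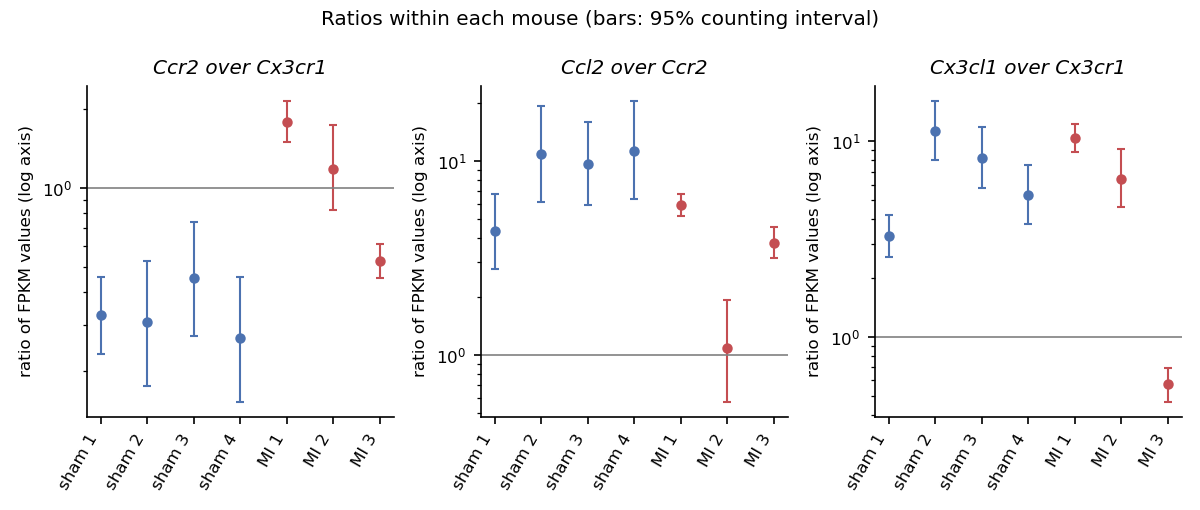
Ratios of FPKM values within each mouse (log axis, 95% counting intervals) for Ccr2 over Cx3cr1, Ccl2 over Ccr2 and Cx3cl1 over Cx3cr1 in 4 sham-operated (blue) and 3 MI mice (red). The first ratio was at most 0.452 in a sham-operated mouse and at least 0.527 in an MI mouse.

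Other genes of the pathway were read in the fit of all genes above 0, where 20.6% were higher at an unadjusted p under 0.05, and none of those listed passed an adjusted p under 0.05 in limma with all mice. Of 17 other CC chemokines 16 were found and 15 had a value above 0, of which 6 were higher and 0 lower at an unadjusted p under 0.05, with Ccl20 at 0 in every mouse. Ccl5 had a log2 fold change of 1.38, the lymphoid chemokine Ccl21a 1.29, Ccl4 1.09 and Ccl1 0.0038. Ccl21a was at an FPKM of 18.02 to 22.2 in the sham-operated mice and 74.6, 31.2 and 58.8 in the MI mice, and is uncertain because near-identical copies of this gene exist. Of 10 other CC receptors 6 were higher, among them Ccr1 at 1.24 and Ccr7 at 1.03, with Ccr3 smallest at 0.032. None of the 10 passed the filter. Among the 6, Ccr4 rested on 2 to 7 fragments, Ccr1l1 on 2 to 4 and Ccr9 on 6 to 25 per MI mouse. In a sham-operated mouse these were 0, 0 to 2 and 0 to 1. Ccr1, the receptor of Ccl9, was at 0.252 to 0.436 in the sham-operated mice and 4.94, 0.748 and 2.09 in the MI mice, with no overlap.

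Of 5 atypical receptors, which bind chemokines without G protein signalling, 1 was higher and 1 lower at an unadjusted p under 0.05. Ackr4 had 0.61, Ackr2 0.27, Ackr1 0.14 and Ccrl2 -0.32. Of 9 cytokines that can induce chemokines and were above 0, 4 were higher, with Il1b at 1.34, Il6 at 0.65, Il34 at 0.61 and Il4 smallest at -0.021, and Il13 at 0 in every mouse. Il1b was at 0.054 to 0.137 in the sham-operated mice and 3.51, 0 and 3.87 in the MI mice, so MI replicate 2 was listed at 0. Of 8 proteases that can cut chemokines 4 were higher, led by Ctss at 2.40, Mmp14 at 2.12 and Mmp2 at 2.09, with Mmp9 smallest at 0.29. Adam10 and Adam17, which shed Cx3cl1, had 0.50 and 0.31. Of 15 genes of receptor signalling 13 were higher, among them Rac2 at 1.45 and Vav1 at 1.23, with Grk2 smallest at 0.28. The median log2 fold change was 0.83 over this signalling list, 1.35 over the 9 chemokine and receptor genes and 0.062 over all genes of the fit. The last holds many genes of very low FPKM, and over the 11431 genes past the filter the median was 0.21.

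The tested genes whose pattern over the 7 mice was most like that of a member, by Pearson's r of log2(FPKM + 1), are given as a description. For Ccl2 they were Ssb (0.998), Sgsm3 (0.997) and Fam207a (0.997), and 1831 genes had r over 0.95. For Ccr2 they were Samd9l, Cdc27 and 4833420G17Rik (each 0.998), with 2764 genes over 0.95. Cx3cl1 stood more alone, with Rpp30 (0.968), Fndc3b (0.959) and Plcg1 (0.959) and 7 genes over 0.95. For Cx3cr1 they were Tmco3 (0.994), Ccdc181 (0.988) and Polr2g (0.987), with 113 genes over 0.95. The likeness to Ccl2, Ccr2 and Cx3cr1 rests mainly on MI replicates 1 and 3, and that to Cx3cl1 on MI replicate 1.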

How the data were processed

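RNA-seq of 4 sham-operated and 3 MI mouse hearts, grouped by the treatment label, was analysed. The authors deposited FPKM values for 56980 genes. The submitters' processing notes name CASAVA 1.8, HISAT2, SAMtools 1.3.1, edgeR and mm10; the annotation and the use of strand are not given in the sources used here. No column of values was left out. Identifiers matched GENCODE M21 for 52125 genes (91.48%). Whole fragments were recovered from the steps of the FPKM values, to a tolerance of 0.05 fragments, for 30502 of 30504 genes above 0, and give depth and the 95% Poisson and exact binomial intervals, which cover counting error only. The lengths behind the values were not all those of M21.

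The 11431 genes at or above 1 FPKM in 3 or more mice were tested as log2(FPKM + 1) with limma 3.58.1 (lmFit, eBayes with trend) in R 4.3.3, with Benjamini-Hochberg adjustment at 0.05. Since these are not counts, the main test used no count model, and voom on the recovered fragments was an alternative. Exact permutation p-values are 2 times the smaller tail over 35 splits. An earlier version of the calculation took the share of splits with an absolute difference at least as large; it was replaced after its p-values had been seen, because the plan of the test had given 2 of 35 as the smallest p, which the absolute differences can go below, and both are given in the closing section. The recovery and the test were also tested on simulated data. Figures were drawn with matplotlib 3.10.9, and the remaining calculations ran in Python 3.11.15 with SciPy 1.17.1, NumPy 2.4.6 and pandas 2.3.3.

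The 9 genes, the gene lists and the rule for naming others were chosen with earlier results of these data known. The rule names, from each pathway list, the 3 genes with the largest and the 1 with the smallest log2 fold change and those at 0, from each marker list the most abundant, and for 4 members the 3 genes with the highest r. Some genes under this rule are not reported here. Ccr1, Ccl21a, Il1b, Adam10 and Adam17 were given further values after their values were seen. Alternatives were no filter, a pseudocount of 0.1, TPM, median log-ratio and quantile scaling, sample weights, voom on recovered fragments, a block for replicate number and each mouse left out. Added after seeing the data were no filter together with leaving out MI replicate 2, ratios without a pseudocount, the other two-sided p and the shares of genes apart from sham relative to marker sums. The serum, cell and patient data of the study were not analysed here.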

Additional observations from a re-analysis of the deposited data

Results flagged for a closer look

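In the 4 sham-operated mice, 1 mouse stood apart from the others in 2 of the 36 sets of values looked at, where chance would flag about 1.8. For Ccl7, sham replicate 3 had an FPKM of 2.02 and the gap to the next mouse was 0.8897 of the range of the group, above Dixon's 95% critical value for 4 samples. For the summed neutrophil markers, sham replicate 2 was highest and its gap was 0.8709 of the range.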

How the results depend on the processing

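The calls depended on MI replicate 2 and on sample weights. Members called higher at an adjusted p under 0.05 were 0 with all mice, 0 to 4 with 1 mouse left out, 4 with sample weights and 8 without a filter and MI replicate 2, where 8 were also higher at an unadjusted p, beside 40.8% of all genes. All tested genes called higher were 2, 6512 without MI replicate 2 and 7636 with sample weights. Sample weights gave MI replicate 3 a weight of 437 against 0.0217 to 1.32 for the others, and put Cx3cl1 at -0.45, so that 1 member was lower at an adjusted and 1 at an unadjusted p, beside 20.3% and 20.4% of all tested genes; without 1 mouse its log2 fold change ran from -0.28 to 0.88. Members not overlapping between groups were 4 to 8 with 1 mouse left out, beside 13.3% to 14.9% of all genes where 4 and 43.4% where 8. Ccl2 relative to Ccr2 was -0.74 at a pseudocount of 0.1, -1.55 without one and -0.076 to 0.93 with 1 mouse left out, lowest without MI replicate 1. Cx3cl1 relative to Cx3cr1 ran from -0.85 to 0.63, highest without MI replicate 3 and 0.021 without sham replicate 2. The cause was not tested. Ccr2 relative to Cx3cr1 was 1.02 at a pseudocount of 0.1, and 0.0015 to 0.51 with 1 mouse left out. Counting absolute differences, the exact permutation p-values of the 3 ratios were 0.457, 0.514 and 0.886, in place of 0.457, 0.629 and 0.857, and without a pseudocount 0.0286, 0.0857 and 0.6, in place of 0.0571, 0.114 and 0.629; unadjusted, the first ratio without a pseudocount was under 0.05 by absolute differences only, and after adjustment over the 3 this design could hardly go under 0.05. Of all tested genes 73.0% were higher in the MI mice, 83.3% after TPM, 50.4% after median log-ratio and 46.2% after quantile scaling. With the replicate block 3 members were higher at an unadjusted p, as without it, while the share of all tested genes went from 29.5% to 15.5%. Deviations of mice with the same number correlated at 0.074, -0.016 and -0.080, within the -0.091 to 0.081 of mice with different numbers. They gave no sign that the numbers pair mice. With 3 MI mice, of which MI replicate 2 lay near sham, they cannot exclude it. Ccl8 rested on 2 to 8 fragments per sham-operated mouse, which limits its fold change.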
